A study of Xenopus tropicalis with 12 samples.

Results

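The effect of removing TRα on the chromatin sites bound by T3 receptors (TRs) under thyroid hormone (T3) was examined in the intestine of Xenopus tropicalis tadpoles at stage 54. Of the 12 ChIP-Seq libraries of the series, 6 were compared: 3 of wild-type tadpoles kept in 10 nM T3 for 18 h and 3 of TRα-/- tadpoles treated in the same way. The TRα-/- tadpoles were homozygous for the disrupted gene. The other 6 libraries, 3 of each genotype without T3, took no part in defining the sites and served as an independent measurement of them. The 3 replicates of a group were technical libraries of 1 purified ChIP DNA sample, so their spread covers library preparation and sequencing alone, and genotype cannot be told apart from the ChIP sample in any value below. Positions are those of the Xenbase v9.1 assembly.

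T3 acts through TRα and TRβ, nuclear receptors that sit on T3 response elements as partners of retinoid X receptors. Without hormone they recruit corepressors and with hormone they recruit coactivators. In the tadpole intestine, T3 drives the death of the larval epithelium and the formation of the adult one, and TRα is the main receptor before metamorphosis, whereas TRβ is itself induced by T3. The antibody recognized both receptors. A peak in the TRα-/- libraries is therefore a site where fragments were recovered while TRβ was the only TR left. The gene for TRα, thra, is not named in the lists used here, so the targeted gene was not examined in these libraries.

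Each library was described by its own list of peaks, which are stretches where sequenced fragments piled up above the local background. Peaks of the 6 T3 libraries that shared 1 bp or more were merged, which gave 116376 regions. A region that each of the 3 wild-type libraries and no TRα-/- library marked with a peak was called wild-type-only, and there were 1498 of these, 1.29% of all merged regions. The reverse rule gave 21 TRα-/--only regions, 0.018% of the merged regions. A peak was present in all 6 libraries in 5640 shared regions, 4.85% of the merged regions. The remaining regions followed none of these patterns, and 88813 of all regions held a peak of 1 library alone. These counts follow from the rule and carry no test.

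With T3, the wild-type libraries held more peaks than the TRα-/- libraries. Replicates 1, 2 and 3 had 34933, 40863 and 44567 peaks in wild-type and 17414, 26018 and 30916 peaks in TRα-/- intestine. Every wild-type library was above every TRα-/- library, with means of 40121 ± 4860 and 24783 ± 6835 peaks (SD, n = 3 libraries each, two-sided exact permutation test p = 0.1, the smallest this design can give). The background level of MACS2, recovered from pileup and fold enrichment, was 0.251, 0.523 and 0.664 fragments in the wild-type libraries and 0.149, 0.249 and 0.297 in the TRα-/- libraries. It overlapped between the groups (exact p = 0.2, Benjamini-Hochberg adjusted p = 0.4 over 4 measures). This level rises with sequencing depth, which is unknown because the lists give no read totals, and its part in the counts of peaks and regions was not tested. Median peak widths were 248, 320 and 318 bp against 256, 262 and 263 bp (exact p = 0.4, adjusted p = 0.4). Median pileups, the number of fragments over the summit, were 5, 7 and 8 against 4, 5 and 5 (exact p = 0.3, adjusted p = 0.4). Without T3 the numbers of peaks overlapped between the genotypes. Replicates 1, 2 and 3 then had 34644, 44694 and 63333 peaks in wild-type and 44196, 38961 and 42458 in TRα-/- intestine.

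Because unequal lists make one-sided regions unequal too, the regions were also built from the 17414 peaks of highest pileup in each library. This left peaks of at least 5, 8 and 9 fragments in the wild-type libraries and of at least 3, 4 and 4 fragments in the TRα-/- libraries. Of 47646 merged regions, 575 were then wild-type-only (1.21%), 40 were TRα-/--only (0.084%) and 4946 were shared (10.4%). Of the 575 regions, 435 were also wild-type-only with all peaks, and the other 140 had a lower TRα-/- peak that fell outside the equal lists. The 435 regions were 29.04% of the 1498. Of the 21 TRα-/--only regions, 12 kept their class, and 28 of the 40 found with equal lists had a lower wild-type peak. Leaving out wild-type replicate 1, 2 or 3 gave 4069, 2696 or 2559 wild-type-only and 32, 47 or 52 TRα-/--only regions. Leaving out TRα-/- replicate 1, 2 or 3 gave 1924, 2306 or 2755 wild-type-only and 249, 134 or 103 TRα-/--only regions. Fewer libraries then had to hold or lack a peak. Each class rose most without replicate 1 of its own genotype, the library with the fewest peaks of its group. The part of list length in these changes was not tested.

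Sites with high peaks were rarely without any TRα-/- peak. A peak of 3 fragments could count as present in these libraries, so a tall site can fall far and still be kept. The region near dusp10, with 500, 1198 and 1067 fragments in wild-type and 41, 35 and 48 in TRα-/- intestine, was kept in this sense. Among the 12789 regions that all 3 wild-type libraries marked, 11.7% had no peak in TRα-/- intestine, but this share depended on the rank of the site by pileup. It was 1.04% among the 483 regions with a median rank up to 500, and 467 of these 483 had a peak in all 3 TRα-/- libraries. The share was 1.96% at ranks from 2000 to 4000, 15.9% from 8000 to 16000 and 36.0% beyond 16000. In the other direction, 0.345% of the 6095 regions with a peak in all 3 TRα-/- libraries had none in wild-type intestine, and 1.2% from rank 8000 to 16000. With equal lists the share from rank 8000 to 16000 was 16.6% for the wild-type regions, or 349 of 2097. For the TRα-/- regions it was 3.43%, or 17 of 495. Equal lists thus did not give equal bases, and over all ranks these were 8760 wild-type and 5585 TRα-/- regions. How far the unequal bases shaped the shares was not tested. Of the 1498 wild-type-only regions, 665 had a rank from 8000 to 16000 and 626 a rank beyond 16000, so most were low peaks.

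**Figure D1:**
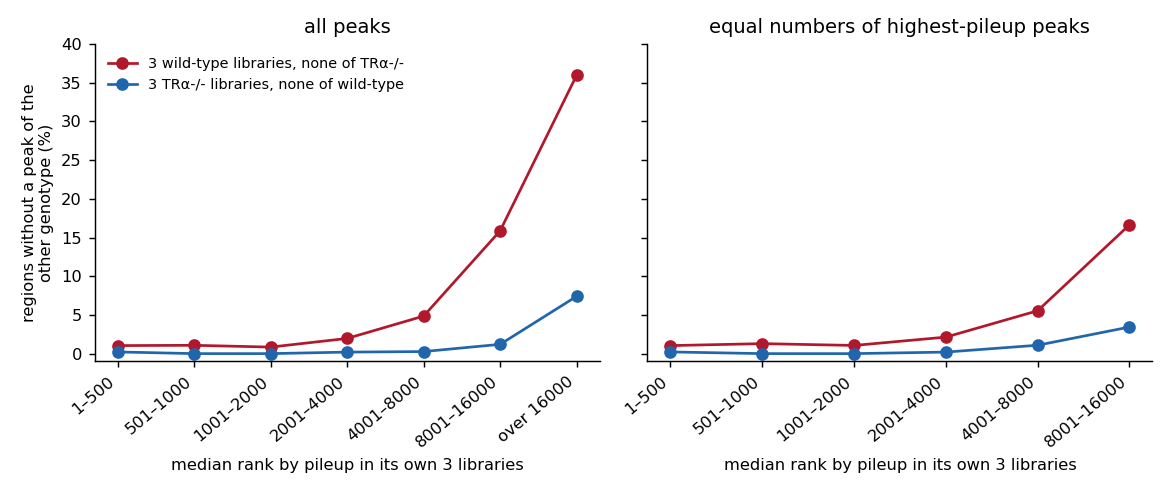
Share of regions (%, vertical axis) marked in all 3 libraries of one genotype that held no peak of the other, by the median rank of the region in its own 3 libraries (horizontal axis), with all peaks on the left and equal numbers of highest-pileup peaks on the right. The wild-type share runs from 1.04% at the top ranks to 36.0% beyond rank 16000 with all peaks, and bins under 20 regions are not drawn.

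The tallest sites of the 6 libraries were shared. The highest one lay 7061 bp downstream of LOC108648339, at chr8:23529069-23530255. It reached 2122, 4130 and 4664 fragments in the wild-type and 1521, 2252 and 2516 fragments in the TRα-/- libraries. Further top sites lay near LOC108647659, 8374 bp upstream of tom1l1, an adaptor of endosomal sorting, and 9426 bp upstream of tox3, an HMG-box transcription factor. Within the shared regions, the median ratio of TRα-/- to wild-type pileup ran from 0.283 to 0.918 over the 9 pairs of libraries. These ratios come only from regions with a peak in every TRα-/- library, which can raise them. At that scale a typical wild-type-only region would have had 2.83 fragments in the lowest and 4.53 in the highest TRα-/- library (medians over the 1498 regions). The lowest pileup called as a peak in these libraries was 3. Whether the calling threshold accounts for the missing peaks was not tested. By the same scale, 137 of the 1498 regions (9.15%) would have reached 5 fragments in every TRα-/- library, 25 would have reached 10 and 7 would have reached 20.

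Those 7 regions lead the list of 15 wild-type-only regions named by rank. The pileup chose that list, so the values are given as a description. The highest lay at chr1:71652844-71653055, 212 bp wide and 12356 bp upstream of LOC108648277. It had 580, 1182 and 927 fragments in the 3 wild-type libraries with T3 and no peak in the 3 TRα-/- libraries with T3. Without T3 it had 818, 1518 and 1802 fragments in wild-type intestine, and 1 TRα-/- library had a peak of 17. The site was thus as tall without T3, and the gap between genotypes held in the libraries the rule did not use.

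Inside gpm6b, a membrane glycoprotein of the nervous system in mammals, the region at chr2:102146591-102147221 had 154, 290 and 300 fragments with T3 in wild-type intestine. Without T3 it had 70, 143 and 226 in wild-type and 50, 267 and none in TRα-/- intestine, so here the genotypes overlapped without T3. The region 4192 bp downstream of ccdc13, which encodes a coiled-coil protein, at chr6:2555264-2555710 had 44, 109 and 103 fragments with T3 and 65, 145 and 204 without T3 in wild-type intestine. No TRα-/- library with or without T3 had a peak there.

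The same pattern, tall in all 6 wild-type and absent from all 6 TRα-/- libraries, was found inside gpsm1, herc2, rfx1, arhgap31 and LOC100495467 and upstream of cdk8. The region in gpsm1, a modulator of G-protein signalling, at chr2:81772485-81773165 had 50, 86 and 95 fragments with T3 and 53, 169 and 222 without T3 in wild-type intestine. The region in herc2, a large ubiquitin ligase, was 203 bp wide (chr2:111067108-111067310) and had 48, 92 and 94 fragments with T3 and 60, 147 and 224 without T3. The region in rfx1, a transcription factor of the RFX family, at chr3:129889904-129890204 had 26, 76 and 82 with T3 and 47, 110 and 180 without T3. At these sites the highest values were those without T3, although the pileups are not scaled to depth. In contrast, the unscaled pileup 389 bp upstream of cdk8, the kinase of the Mediator complex, at chr2:152840260-152841000 was higher with T3. It was 32, 75 and 73 fragments with T3 and 11, 28 and 27 without T3. The tallest shared site also had higher wild-type pileups with T3, at 2122, 4130 and 4664 fragments against 926, 2181 and 3141. The region in arhgap31, a GTPase-activating protein, at chr2:2374746-2375528 had 31, 64 and 53 fragments with T3 and 40, 97 and 157 without T3. The region in LOC100495467 had 15, 39 and 47 with T3 and 19, 50 and 97 without T3.

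Other regions of the list looked different without T3. The region 1417 bp upstream of LOC108648193 (chr1:46990614-46991011) had 42, 65 and 60 fragments in wild-type intestine with T3, and without T3 it had a single peak, of 17, in wild-type replicate 3. The region 938 bp upstream of the glutamine tRNA gene trnaq-cug had 23, 38 and 60 fragments with T3 in wild-type intestine and no peak in any other library. Gene copies of a tRNA are alike, so fragments there may belong to another copy. The region in tbrg4, which encodes a mitochondrial protein, had 30, 55 and 59 fragments in wild-type intestine with T3. Without T3 it had 12, 32 and 29 in wild-type and 5, 8 and 8 in TRα-/- intestine. One region lay 112450 bp downstream of etaa1, its nearest gene, which acts in the response to replication stress. There the peaks of 15, 27 and 23 fragments in TRα-/- intestine without T3 outnumbered the single wild-type peak of 31. The region 11853 bp downstream of ly75 had 19, 39 and 51 fragments in wild-type intestine with T3. Without T3 it had 10, 20 and 27 in wild-type and 8, 11 and 19 in TRα-/- intestine, where the genotypes overlapped. At 11437 bp upstream of dlx4, a homeobox gene, the wild-type values were 24, 55 and 45 with T3 and 27, 70 and 77 without T3. There 1 TRα-/- library without T3 had a peak of 5. All 15 named regions stayed wild-type-only with equal lists by pileup, the value that also ranked them. With equal lists by −log10 p and at a −log10 q of at least 5, the region near trnaq-cug kept peaks in 2 and 1 wild-type libraries.

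**Figure D2:**
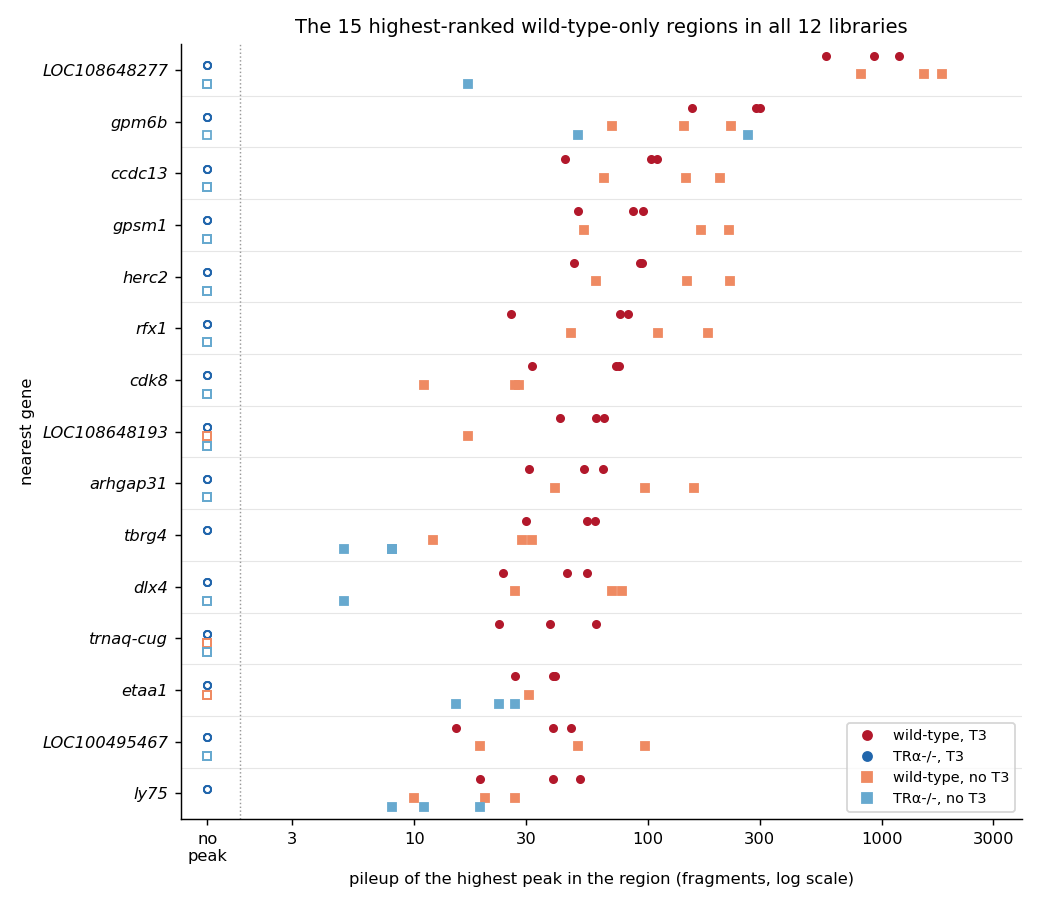
Pileup of the highest peak (fragments, log scale) in each of the 12 libraries for the 15 wild-type-only regions of best median rank, named by the nearest gene. Filled circles are libraries with T3 and filled squares libraries without T3, open marks at the left are libraries with no peak and may lie on top of each other. Most rows have wild-type squares beside the wild-type circles and few TRα-/- squares, while etaa1, ly75 and tbrg4 have all 3.

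Of the 25 wild-type-only regions that would have reached 10 fragments in every TRα-/- library, a set chosen after its values were seen, 19 (76.0%) had a peak in more wild-type than TRα-/- libraries without T3, 5 in equally many and 1 in fewer. Without T3, peaks of the 3 wild-type libraries and of no TRα-/- library were found for 11 of the 25 (44.0%), for 73 of all 1498 (4.87%) and for 18 of the 5640 shared regions (0.319%).

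The libraries without T3 gave a measurement of the classes that the rule had not used. A peak of the 3 wild-type libraries without T3 covered 33.9%, 56.1% and 68.6% of the wild-type-only regions, and a peak of the 3 TRα-/- libraries covered 28.1%, 37.8% and 40.7%. For the shared regions the shares were 84.8%, 96.3% and 99.0% in wild-type and 85.6%, 93.1% and 93.8% in TRα-/- libraries. Taken as a percentage of the share of shared regions in the same library, the wild-type-only regions stood at 55.9 ± 14.9 in wild-type and 38.9 ± 5.44 in TRα-/- libraries without T3 (SD, n = 3, two-sided exact permutation p = 0.3, adjusted p = 0.3 over the 2 classes). The 2 groups overlapped, because wild-type replicate 1 stood at 39.9. With equal lists the values were 53.7 ± 10.8 and 33.9 ± 6.18 and did not overlap (exact p = 0.1, adjusted p = 0.1, the smallest possible). The TRα-/--only regions went the other way, at 26.7 ± 11.0 in wild-type and 47.4 ± 7.51 in TRα-/- libraries (exact p = 0.1, adjusted p = 0.2). Region by region, 734 of the 1498 wild-type-only regions (49.0%) had a peak in more wild-type than TRα-/- libraries without T3, 501 in equally many and 263 in fewer. In the shared regions 861 (15.3%) had more wild-type and 560 more TRα-/- libraries. In each TRα-/- library without T3, then, at least 28.1% of the wild-type-only regions had a peak. The TRα-/- lists without T3 were longer than those with T3, which gives more room for a called peak. With equal lists these shares were 22.4%, 33.4% and 35.3% of the 575 wild-type-only regions.

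**Figure D3:**
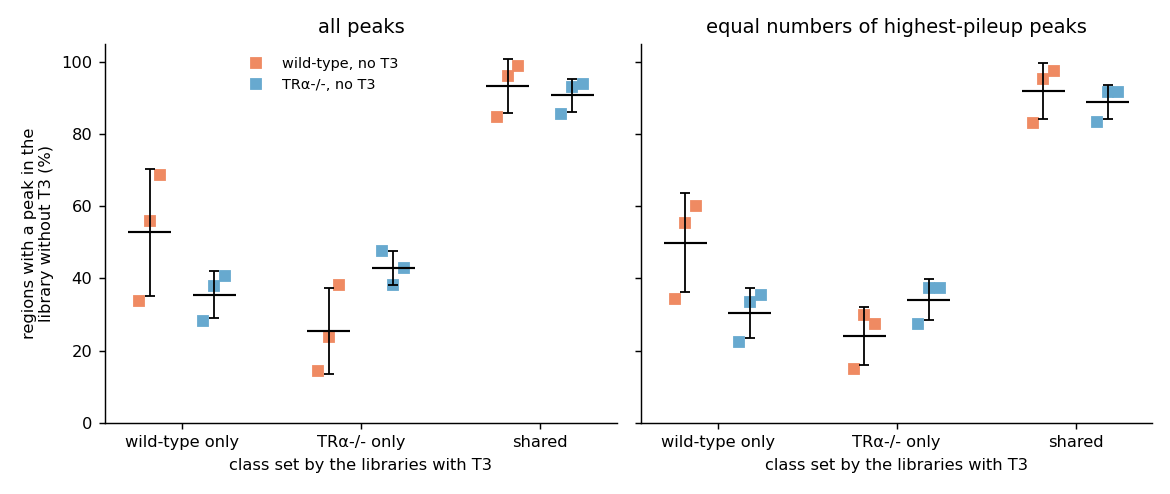
Share of regions (%, vertical axis) with a peak in each library without T3 (squares), by the class that the T3 libraries set, with all peaks on the left and equal numbers on the right; bars are the mean ± SD of 3 libraries. With all peaks the wild-type-only regions lie between 28.1% and 68.6%, below the shared regions at 84.8% to 99.0%.

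Beyond the single tall site in gabarapl1, the TRα-/--only regions had low pileups in the TRα-/- libraries. Inside gabarapl1, an autophagy gene of the ATG8 family, the region at chr7:10496285-10496469, 185 bp wide, had 330, 323 and 454 fragments in the TRα-/- libraries with T3. It had no peak in any wild-type library with or without T3, and a peak of 6 in 1 TRα-/- library without T3. The next region, in LOC101733691, had 8, 13 and 13 fragments with T3 and 5, 18 and 12 without T3 in TRα-/- intestine and no wild-type peak in any of the 6 wild-type libraries. The remaining 19 regions had between 3 and 15 fragments. At the scale of the shared regions, the 21 regions would have had medians of 6.535 fragments in the lowest and 13.25 in the highest wild-type library. In every wild-type library, 19 of the 21 (90.5%) would have reached 5 fragments and 4 would have reached 10. The lowest pileups called as peaks there were 3, 4 and 4. Why these regions lacked a wild-type peak was not tested. Among them were regions inside prr5l, prkg1, pdzrn3 and samd12, 2865 bp downstream of cxcr4, the chemokine receptor, and 53543 bp upstream of cdk1, the kinase of mitotic entry. Several were not one-sided without T3. The region in prkg1 then had peaks in all 3 libraries of both genotypes, with 2, 8 and 6 fragments in wild-type and 4, 6 and 8 in TRα-/- intestine. That near cxcr4 then had peaks of 3 and 5 in wild-type and none in TRα-/- intestine, and that near cdk1 had 1 peak in each genotype, of 4 and 5. The regions in prkg1 and near cdk1 also lost their class with equal lists by pileup and at a −log10 q of at least 5. They kept it with equal lists by −log10 p.

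The wild-type-only regions were narrower than the shared ones. The median width of a joined region was 636 bp (quartiles 465 and 853 bp) in the wild-type-only class, 581 bp in the TRα-/--only class and 952 bp (quartiles 666 and 1400 bp) in the shared class. At least 2 kb was reached by 7 wild-type-only (0.467%) and 672 shared regions (11.9%). A joined region grows with the number of libraries that hold a peak, so single peaks were compared within a wild-type library at the same pileup. At 11 to 20 fragments, the median peak was 344, 517 and 520 bp wide in wild-type-only regions and 731, 775.5 and 798 bp wide in shared regions in replicates 1, 2 and 3. At 21 to 40 fragments the widths were 287, 358.5 and 370 bp against 795.5, 842 and 858 bp. In the lowest bin, up to 5 fragments, they were 303, 292 and 269.5 bp against 327.5, 283 and 337 bp, so the order did not hold in replicate 2. Of the 10 wild-type-only regions with a median rank up to 1000, 2 were under 250 bp, against 8 of 911 shared regions (0.878%).

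**Figure D4:**
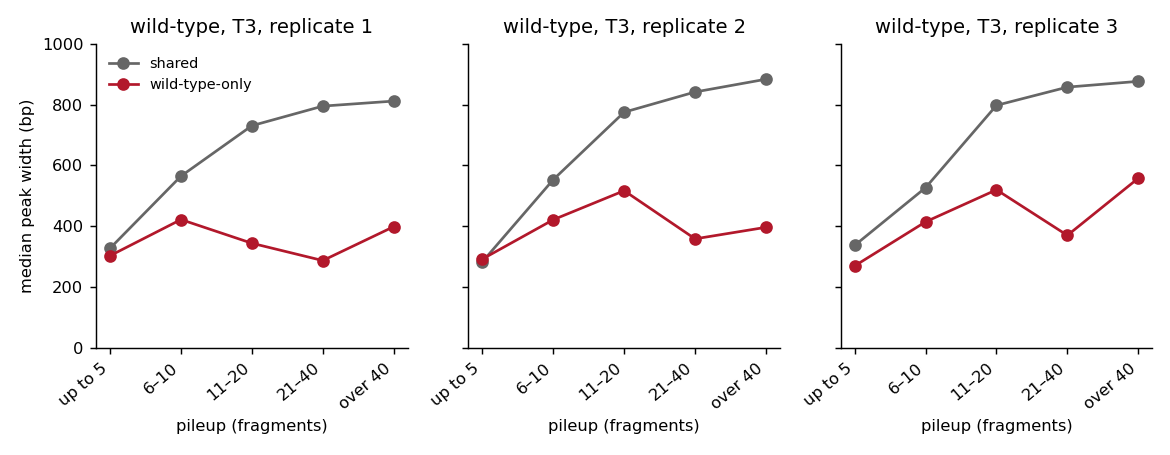
Median width of single peaks (bp, vertical axis) by pileup (fragments, horizontal axis) in the 3 wild-type libraries with T3, for peaks in shared regions (grey) and in wild-type-only regions (red). Above 10 fragments the red points lie between 287 and 558 bp and the grey points between 731 and 884 bp; the bins over 20 fragments hold 6 to 82 peaks of the wild-type-only class.

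Both classes lay mostly outside genes. Distances were measured to the gene extents in the lists, so unlisted genes and unlisted parts of genes were not counted. Over 5 kb from any of these extents lay 43.9% of the wild-type-only regions (95% exact binomial interval 41.4 to 46.5%). For the shared regions the share was 46.7% (45.4 to 48.0%). A further 14.7% and 16.6% lay in the 5 kb flanks. Of the wild-type-only regions 41.4% overlapped a gene, 2.27% an exon, and of the shared regions 36.7% and 0.957%. The start of a fully listed gene lay within 1 kb of 86 wild-type-only regions (5.74%) and 259 shared regions (4.59%). Regions near each other are not independent, and no test was made. The intervals cover counting error only. By chromosome there were between 24.0 wild-type-only regions per 100 shared regions, on chromosome 8, and 28.7, on chromosomes 1 and 5. Over windows of 5 Mb holding at least 20 regions of the classes, the share of wild-type-only regions ran from 7.41% to 57.7%, with 21.0% over all regions. The highest of the 88 windows, 20 to 25 Mb on chromosome 2, held 15 wild-type-only and 11 shared regions. The genes next to its wild-type-only regions were cadm2, robo1 and robo2, cell adhesion and axon guidance receptors, and gbe1, usp25, mir99 and LOC101733853. These 15 regions were low, with a median rank of 14463. Without T3, 1 of the 15 had a peak in the 3 wild-type libraries and in no TRα-/- library.

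A wild-type-only region lay in, or within 5 kb of, 868 of the 19785 gene extents in the lists (4.39%), a TRα-/--only region of 16 (0.0809%) and a shared region of 2184 (11.0%). Of the 868 genes, 296 (34.1%) also had a shared region, which is 13.6% of the genes with a shared region, so 572 genes had a wild-type-only region and no shared one. Most genes had a single wild-type-only region, namely 793 of the 868. The genes with the most were atrnl1, an attractin-like membrane protein, with 7, lrp1b, a receptor of the LDL-receptor family, with 6, and cadm2 with 4. These are long genes, with extents of 388102, 865899 and 958633 bp, and they held 29, 11 and 4 shared regions. A further 12 genes had 3 each, among them robo1, ctnna2, the neuronal α-catenin, and ebf4 and nfix, transcription factors. Also among them were nbeal2 and pdzrn3, which had no shared region. In pdzrn3 there was also 1 TRα-/--only region.

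Among lists of genes known in intestinal remodeling, between 0 and 4 genes of a list had a wild-type-only region. The shares over all genes are 4.39% for wild-type-only and 11.0% for shared regions. The lists are short, and nothing particular to a list is read from these counts. Among tadpole T3 response genes, 2 of 21 had a wild-type-only region, among them thrb, the gene of TRβ, and 1 of 21 had a shared region. Among TR partners and cofactors, 2 of 18 had one, among them the coactivator gene ncoa3, and 2 of 18 had a shared region. Among nuclear receptors the count was 4 of 37: thrb, nr5a2, esrrg and hnf4a. The cell cycle list had 2 of 61, aurkb, a mitotic kinase, and cdk6, a kinase of the G1 phase, and 4 of 61 had a shared region. The matrix list had 3 of 47, the integrin genes itga2, itga8 and itgb3. The hedgehog list had 1 of 20, the ligand gene ihh, the Wnt list 1 of 41, the ubiquitin ligase gene znrf3, and the TGF-beta list 1 of 30, the activin receptor gene acvr2a. The apoptosis list had 1 of 32, the death receptor gene tnfrsf10b, the intestinal epithelium list 1 of 36, hnf4a, and the Notch list 0 of 25 with 4 of 25 bearing a shared region. No listed gene had a TRα-/--only region, where the share of all genes is 0.0809%.

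Most of these regions were low. Inside znrf3, a negative regulator of Wnt receptors, the region at chr1:157601145-157601456 had 18, 26 and 38 fragments with T3 and without T3 1 wild-type peak, of 14. The region 704 bp upstream of aurkb (chr3:131769303-131770587) had 7, 9 and 14 fragments with T3. Without T3 it had peaks of 4 and 8 in wild-type and 3 and 7 in TRα-/- libraries. The region 664 bp upstream of cdk6 had 7, 9 and 7 fragments with T3. Without T3 it had peaks of 7 and 6 in 2 wild-type libraries and of 3, 3 and 4 in the TRα-/- libraries. In ihh, the region at chr9:77672776-77673723 had 9, 7 and 12 fragments with T3, peaks of 4 and 5 in wild-type and none in TRα-/- intestine without T3. In hnf4a, which marks the intestinal epithelium, the region had 3, 10 and 18 fragments with T3, and 977 bp upstream of acvr2a it had 8, 8 and 13. Without T3 the region in hnf4a had peaks of 3, 6 and 8 in wild-type and of 3 and 6 in TRα-/- libraries. That near acvr2a then had 2, 5 and 15 in wild-type and 5, 6 and 8 in TRα-/- libraries. Of the 16 regions of listed genes, those in thrb and znrf3 and near aurkb stayed wild-type-only with equal lists by pileup. With equal lists by −log10 p and at a −log10 q of at least 5, the region near aurkb kept peaks in 2 and 1 wild-type libraries.

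At the classical T3 response genes, only regions that all 3 T3 libraries of a genotype marked were listed, and thrb had 2 of these. The one at chr6:77251220-77251578, inside the gene, had 14, 15 and 32 fragments in wild-type intestine with T3 and no peak in any of the other 9 libraries. The other, at chr6:77303571-77304427, also inside the gene, had 10, 26 and 20 fragments in wild-type and none, 7 and 10 in TRα-/- intestine with T3, so it belonged to neither class. Without T3 it had 15, 9 and 18 in wild-type and 4, 7 and 10 in TRα-/- intestine. At thibz, a bZIP transcription factor gene induced directly by T3, a shared region lay 4455 bp upstream, at chr3:129209307-129209703. It had 38, 65 and 90 fragments in wild-type and 19, 17 and 33 in TRα-/- intestine with T3, and without T3 it had 22, 33 and 52 in wild-type intestine and no peak in the TRα-/- libraries. Relative to the other shared regions its height with T3 differed by -0.36 on the log2 scale (SE 0.26, limma adjusted p = 0.645), which did not pass the threshold. No region of that kind lay in klf9, a zinc-finger gene induced by T3, or within 5 kb of it.

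Height was then compared in the 5640 shared regions, as log2(pileup + 1) centred on the median of each library. Centring removes any change common to all shared regions, so an overall loss or gain of height cannot be seen here. A shared region also needed a peak, of at least 3 fragments, in every TRα-/- library, where the median height of these regions was 8, 10 and 12. Regions that fell below a callable peak were left out, so large losses at low regions cannot be seen here. Within this selected set and relative to that median, the heights of the 2 genotypes were close over most regions. The difference lay within 1 log2 unit in 5577 regions (98.9%), with quartiles of -0.17 and 0.29. By limma with Benjamini-Hochberg adjustment, 9 shared regions (0.16%) were lower and 6 (0.106%) were higher in TRα-/- intestine. With fold enrichment in place of pileup these counts were 0 and 1, and with regions of a mean pileup of at least 20 alone they were 19 and 8 of 2133. Leaving out 1 library at a time gave 8 to 9 and 4 to 6. The pseudocount understates changes of low peaks.

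The regions that were lower in TRα-/- intestine were tall, and 8 of the 9 were narrower than the median shared region of 952 bp. A large fall leaves a peak in every TRα-/- library only where the wild-type pileup is high, so their tallness follows from the rule. The largest difference was inside pcnxl4, a membrane protein of the pecanex family, at chr8:82453566-82454426. There the pileup was 269, 612 and 553 in wild-type and 8, 18 and 26 in TRα-/- intestine with T3 (log2 difference -3.70, SE 0.29, limma adjusted p = 3e-06). Without T3 it was 363, 960 and 1319 against 3, 9 and 21. A region 204147 bp downstream of dusp10, a phosphatase of MAP kinases (chr5:6443932-6444571), had 500, 1198 and 1067 against 41, 35 and 48 fragments with T3 and 623, 1778 and 2662 against 7, 22 and 8 without T3. Its log2 difference with T3 was -3.30 (SE 0.25). The log2 difference was -3.12 at 57460 bp upstream of pitrm1, a mitochondrial peptidase gene, -2.78 in pdia4, a chaperone of the endoplasmic reticulum, and -2.78 in usp15, a deubiquitinase. It was -2.59 at 100 bp upstream of hoxb7, -2.45 near gap43, a growth cone protein of neurons, and -1.88 in cd247, a chain of the T cell receptor complex. Adjusted p-values of these 8 regions were at most 0.0026. In pdia4 the 3 wild-type libraries without T3 had 188, 499 and 847 fragments and no TRα-/- library had a peak. At hoxb7, a homeobox gene of the trunk, the pileup was 187, 284 and 251 against 22, 13 and 20 with T3 and 243, 362 and 443 against 5, 7 and 7 without T3. In these 8 regions the pileups of the groups were separate with and without T3. With fold enrichment in place of pileup the differences with T3 kept their sign but shrank, from -3.30 to -0.37 near dusp10 (limma adjusted p = 0.54) and from -3.70 to -1.26 in pcnxl4 (adjusted p = 0.0949). None of the 8 passed the threshold on that scale, where the differences of the other 6 lay between -0.76 near pitrm1 and -1.35 at hoxb7, and each passed in the other 10 alternatives. The last region, 55 bp upstream of MGC147242, differed by -1.38 with T3 (adjusted p = 0.0333) but by -0.06 without T3, where the groups overlapped, and passed the threshold in 2 of 11 alternatives.

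Of the 6 regions that were higher in TRα-/- intestine, 4 differed in the other direction without T3. At rn18s, annotated as 18S ribosomal RNA, the pileup was 40, 50 and 67 in wild-type and 73, 90 and 125 in TRα-/- intestine with T3 (log2 difference 1.92, SE 0.25, limma adjusted p = 0.000868). The listed extent of rn18s, chr7:88496734-88496797, was a small part of this region of 1575 bp. Ribosomal RNA genes occur in many like copies, so the fragments may come from more than this site. The region 6454 bp downstream of fut3, a fucosyltransferase gene, had 26, 40 and 43 against 47, 72 and 70 fragments (1.85, SE 0.24). The regions in LOC101732008 and near LOC108648775 were higher by 1.68 and 1.63, and that in col19a1, a collagen gene, by 1.56. Without T3 the centred difference was -0.65 at rn18s, -0.74 at fut3, -0.69 at LOC101732008 and -0.48 at col19a1, and only at LOC101732008 did the groups then overlap. Near LOC108648775, 2 wild-type libraries had peaks of 15 and 19 and the 3 TRα-/- libraries had 23, 25 and 16 without T3. With fold enrichment the differences at rn18s, fut3, LOC101732008 and col19a1 were 0.72, 1.07, 0.92 and 0.71 and did not pass the threshold, whereas the region near LOC108648775 still passed (adjusted p = 0.0423). Near gfer, a sulfhydryl oxidase gene, the difference of 1.35 (adjusted p = 0.0481) passed the threshold in 0 of 10 alternatives.

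**Figure D5:**
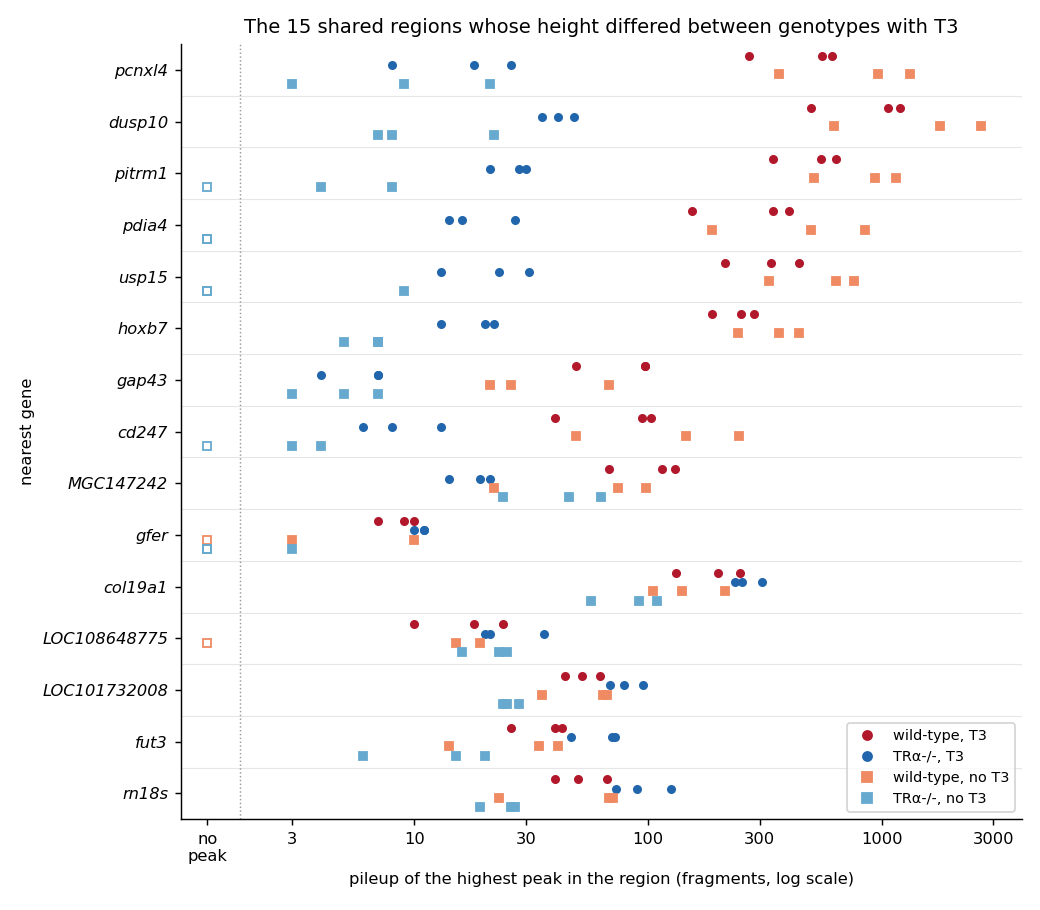
Pileup of the highest peak (fragments, log scale) in each of the 12 libraries for the 15 shared regions that passed the limma threshold with T3, named by the nearest gene and ordered by the log2 difference. From pcnxl4 (-3.70) to cd247 the TRα-/- marks lie far left of the wild-type marks with and without T3, while from LOC101732008 to rn18s (1.92) the TRα-/- circles lie to the right. The pileups drawn are not centred, so the circles of the genotypes overlap in the rows of gfer, col19a1 and LOC108648775.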

How the data were processed

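Reads of TR ChIP-Seq libraries were aligned by the authors with Bowtie2 2.3.4.1 against Xenbase v9.1, and peaks were called in each library with MACS2 2.1.1.20160309 at a q-value under 0.05 without an input library. The deposited lists give each peak's position, the pileup (a signal, the fragments over the summit, without scaling to depth), the fold enrichment as a ratio to the local background, and the −log10 p-value and −log10 q-value. Read totals are not given, so the depth and precision of each library are unknown. Lines that repeat a peak for several features were reduced to 1 per peak.

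Peaks overlapping by at least 1 bp were joined with Python 3.11.15. The height of a region in a library is its highest pileup, and ranks are within a library. Gene extents were taken from the features in the lists, and 69.3% have a full gene feature. Gene IDs were matched to a RefSeq gene table (UCB_Xtro_10.0, 89.6% found) for names alone. No genome sequence was used. Heights in shared regions were compared with limma 3.58.1 in R 4.3.3 on log2(pileup + 1), with adjusted p under 0.05, and values per library with two-sided exact permutation tests. The joining and limma steps were tested on simulated data.

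Named were the 15 wild-type-only regions of best median rank (10 with equal lists) and the 5 best shared regions. The TRα-/--only regions named were among the 10 of best rank, except that near cdk1, which ranked lower. Also named were genes with the most wild-type-only regions and genes of 11 lists with a one-sided region. Further names were thrb, thibz and klf9, and up to 8 shared regions changed in each direction. The members and lists were chosen with earlier results of these data known. Alternatives were equal numbers of peaks by pileup or −log10 p, a −log10 q of at least 5, 50% overlap, a 500 bp margin, at least 2 of 3 libraries, other height scales, each library left out and a replicate block. The libraries without T3 were used only as an independent measure. The regions of 2 listed genes are not reported here by name.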

Additional observations from a re-analysis of the deposited data

Results flagged for a closer look

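In 3 of the 1498 wild-type-only regions the genotypes were reversed without T3, where all 3 TRα-/- libraries and no wild-type library had a peak. The region near LOC101730283 had a mean pileup of 9.0 fragments in the wild-type T3 libraries and of 5.67 in the TRα-/- libraries without T3. The region in LOC100488772 had 8.0 and 6.0, and the region near LOC100487005 had 5.33 and 5.67. In the shared regions near rn18s, fut3 and col19a1, the centred height was higher in every TRα-/- than in every wild-type library with T3, by 1.92, 1.85 and 1.56 on the log2 scale. Without T3 it was lower in every TRα-/- library, with differences of -0.65, -0.74 and -0.48. The difference between the conditions was not tested in any of these 6 regions.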

How the results depend on the processing

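Equal numbers of peaks by pileup gave 575 wild-type-only and 40 TRα-/--only regions, and by −log10 p 564 and 51, against 1498 and 21 with all peaks. A −log10 q of at least 5 gave 4 TRα-/--only and 2567 shared regions, an overlap of at least 50% gave 59 TRα-/--only regions, and a peak in at least 2 of 3 libraries gave 6306 and 448 one-sided regions. Leaving out 1 library at a time gave 1924 to 4069 wild-type-only, 32 to 249 TRα-/--only and 5654 to 7499 shared regions. Wild-type-only regions outnumbered TRα-/--only regions under each of these settings. Counting gene bodies alone placed 58.6% of wild-type-only and 63.3% of shared regions outside genes, against 43.9% and 46.7% over 5 kb away. Shared regions called lower and higher in TRα-/- intestine numbered 9 and 6, with fold enrichment 0 and 1 (unadjusted p under 0.05 in 221 and 478), and at a mean pileup of at least 20, 19 and 8. Same-numbered libraries of the genotypes correlated in their deviations with r = 0.12, 0.02 and 0.01 over 5640 regions, so the numbers were not taken as pairs. With the replicate block, limma called 8 and 5 regions, and exact sign-flip tests gave p = 0.25 for the number of peaks (smallest possible 0.25), a difference of -15338 in both fits. The cause of these changes was not tested. Of 52 named one-sided regions, 22 lost their class with equal numbers by pileup and 34 at the stricter q. Low peaks near the calling threshold and the unknown depth limit the counts of one-sided regions.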
